A study of Mus musculus with 1248 samples.

Results

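The wells described here held host neutrophils with transcripts of Cxcr2, caught in a sort that was meant for tumour cells. Mouse mammary carcinoma cells of the line 4T1, or of its bone-seeking clone 4T1.2, both carrying Firefly-luciferase and mCherry, were injected into the heart of female BALB/c mice. Cells with mCherry fluorescence were sorted singly from the hindlimbs. The bone groups used here were 4T1.2 at day 4, and 4T1 at days 4, 10 and 16. 4T1 tumours grown in the mammary fat pad were sampled at day 22, and cultured cells of both lines were sorted as controls. Each well received a full-length cDNA library made with a modified Smart-seq2 protocol, and wells whose mCherry signal appeared only after 30 qPCR cycles were discarded. The submitters' label calls every well a tumour cell.

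Of 1140 wells from mice, 1122 had at least 1000 genes and 50000 gene counts, and 721 of these were host wells, with Krt8 and Krt18, the keratins of the carcinoma cells, together under 500 CPM, the read counts of a gene scaled to an equal gene total in each well. The neutrophil wells were chosen by the measured levels of these and 5 other genes in the same libraries, which are therefore no finding, and comprised the 146 host wells with at least 5000 CPM of S100a8 and S100a9 together, at least 100 CPM of Cxcr2, and under 100 CPM each of the B-cell gene Cd79a and the macrophage gene C1qa. There were 14 wells of 4T1.2 at day 4, 83 of 4T1 at day 4, 13 at day 10 and 36 at day 16, and 0 of the fat pad. The other 575 host wells served for comparison. Among them, 58 wells met every limit except that Cxcr2 was under 100 CPM, and these are called Cxcr2-low wells. No mouse, plate or sort is named for a well, so each group counted as 1 sample. The values below are descriptions without a test, and the wells of a group are not replicates of its condition.

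Neutrophils are made in the bone marrow in a fixed order. Promyelocytes make the azurophil granules with myeloperoxidase and elastase, dividing myelocytes and metamyelocytes then make the specific granules with lactoferrin and the cathelicidin Camp, and cells that have stopped dividing make the gelatinase granules with Mmp9. Cxcr2, a receptor for CXC chemokines, appears late and draws mature neutrophils out of the marrow into the blood. S100a8 and S100a9 together form calprotectin, the most abundant protein of the neutrophil cytosol.

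The promoters of 3 specific granule genes and of Cxcr2 are shown because the summed transcripts of the first 3 order the wells below, while Cxcr2 sets their lower limit. Each runs 5′ to 3′ on the gene's strand, from 250 bases before the annotated start to 50 bases after it, in RefSeq's annotation of GRCm38.p6. Capitals mark TTGCNNAA on either strand, a core shared by sites of the C/EBP family, which includes the granulocyte factor Cebpe. Ngp lies on the plus strand at chr9:110419558-110419857, Camp on the minus strand at chr9:109849407-109849706, Ltf on the plus strand at chr9:111019042-111019341 and Cxcr2 on the plus strand at chr1:74153744-74154043.
Ngp: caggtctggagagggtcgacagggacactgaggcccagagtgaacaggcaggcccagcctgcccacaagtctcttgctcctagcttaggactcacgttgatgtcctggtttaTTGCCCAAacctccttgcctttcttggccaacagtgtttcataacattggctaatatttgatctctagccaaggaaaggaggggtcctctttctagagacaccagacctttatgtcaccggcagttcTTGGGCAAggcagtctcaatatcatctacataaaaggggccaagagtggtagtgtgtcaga
Camp: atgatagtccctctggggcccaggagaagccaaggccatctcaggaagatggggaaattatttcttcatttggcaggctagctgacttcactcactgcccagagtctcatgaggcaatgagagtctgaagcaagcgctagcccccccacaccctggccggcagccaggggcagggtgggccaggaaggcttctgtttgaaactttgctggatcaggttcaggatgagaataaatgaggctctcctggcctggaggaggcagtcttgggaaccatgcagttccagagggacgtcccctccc
Ltf: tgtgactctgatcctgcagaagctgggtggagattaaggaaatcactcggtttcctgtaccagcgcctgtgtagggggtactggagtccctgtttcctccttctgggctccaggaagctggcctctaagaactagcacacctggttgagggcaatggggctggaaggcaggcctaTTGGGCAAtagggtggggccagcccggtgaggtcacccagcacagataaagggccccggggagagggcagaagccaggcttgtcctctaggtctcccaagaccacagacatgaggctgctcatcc
Cxcr2: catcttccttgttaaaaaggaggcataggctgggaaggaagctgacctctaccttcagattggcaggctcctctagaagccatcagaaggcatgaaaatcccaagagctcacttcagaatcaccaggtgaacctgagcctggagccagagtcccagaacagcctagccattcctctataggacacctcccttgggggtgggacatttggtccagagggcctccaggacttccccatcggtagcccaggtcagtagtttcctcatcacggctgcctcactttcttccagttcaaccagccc
The letters stood at bases -138 and -11 from the start of Ngp and at -75 from the start of Ltf, counting the first base of each match. They were found in neither the window of Camp nor that of Cxcr2. In 13 genes looked up (Ngp, Camp, Ltf, Lcn2, Chil3, Cybb, S100a8, S100a9, Cxcr2, Retnlg, Mmp8, Csf3r and Il1b), all 13 were in the table and 6 held the letters. Of all 32851 promoters in the table, 3547 or 10.8% did. A match is a run of letters and not a measured site. Also looked at were GAGGAAGT, a motif of the ETS family, and the other spellings TTGCNCAA, TTGCGCAA, TTNCNNAA and ATTGCNNAA. In that order, 3.20%, 2.94%, 0.183%, 40.7% and 2.18% of all promoters held them. Among the 13 genes, S100a8 and Mmp8 held GAGGAAGT.

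The neutrophil wells had 435188 to 13183380 gene counts with a median of 2808416, against a median of 2746098 in the other host wells. They showed 5004 to 12808 detected genes and 0.523% to 15.2% mitochondrial counts, and no 2 of the 1248 deposited columns were identical. Reads carried no molecular identifiers, so every interval given here covers counting error only. For genes at 20 CPM or more, the exact Poisson 95% interval of a summed level reached at most 7.77% above it in any group. The deepest well gave 2.07% of the summed neutrophil counts of 4T1 day 4, but 14.5% of those of day 16, 10.4% of day 10 and 9.65% of 4T1.2. Medians over wells and the number of wells at 100 CPM or more are therefore given beside the summed levels.

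The other 3 markers of the label went with the 3 that had chosen the wells, although none of them reached 100 CPM in every well. Retnlg, a resistin-like secreted protein of mature neutrophils, stood at 7.9, 3805 and 43055 CPM in the lowest, median and highest neutrophil well, and its medians were 162 CPM in Cxcr2-low wells and 26.6 CPM in the other host wells. It reached 100 CPM in 120 of 146 neutrophil wells and in 32 of 58 Cxcr2-low wells. Mmp8, the neutrophil collagenase, had a median of 1812 CPM and a range of 2.22 to 19850.2 CPM, with 109 wells at 100 CPM. Csf3r, the receptor for G-CSF, had a median of 606 CPM and a range of 1.27 to 10477 CPM, with 130 wells at 100 CPM. Cxcr2 itself ranged to 5923 CPM with a median of 532 CPM, and S100a8 had a median of 64883 CPM, against 42344 CPM in Cxcr2-low and 344 CPM in other host wells. Tumour wells, which should lack both genes, had medians of 143 CPM of S100a8 and 14.5 CPM of Retnlg, so a low level of either gene does not place its RNA inside the sorted cell. The ranges of Retnlg, Mmp8 and Csf3r overlapped between the neutrophil and Cxcr2-low wells. The neutrophil identity of the label thus held for the marker list, while "mature" applied to a part of the wells, since transcripts made earlier in the lineage were still abundant in most of them.

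**Figure D1:**
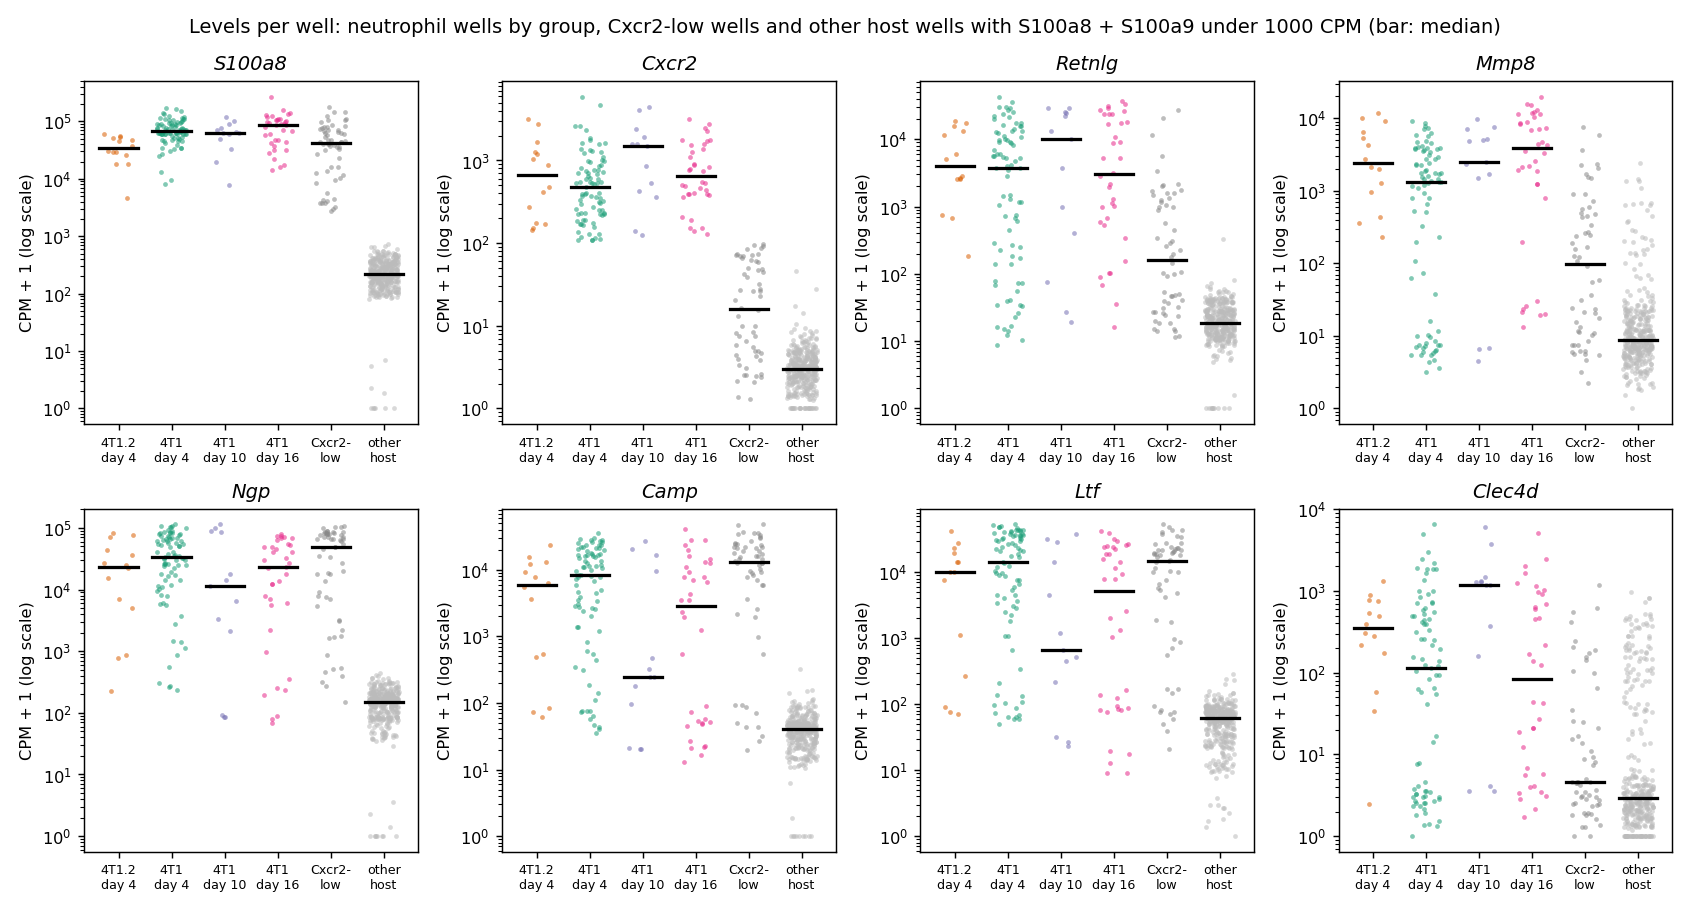
CPM + 1 on a log axis for S100a8, Cxcr2, Retnlg, Mmp8, Ngp, Camp, Ltf and Clec4d in each well, with neutrophil wells by group, then Cxcr2-low wells and the other host wells with under 1000 CPM of S100a8 and S100a9; each point is a well and each bar a median. Camp and Ltf spread over the whole scale within every neutrophil group, and the Cxcr2 gap between the neutrophil and Cxcr2-low wells is set by the choice of wells.

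The limits cut through continuous values. The 3 wells nearest inside the Cxcr2 limit had 109.2, 109.4 and 109.6 CPM, and the 3 nearest outside had 96.8, 95.2 and 90.9 CPM. The lowest sums of S100a8 and S100a9 inside were 7969 and 14841 CPM. The highest values inside were 83.2 CPM of Cd79a, 71.4 CPM of C1qa and 413.7 CPM of Krt8 and Krt18 together. Of the 335 host wells with 5000 CPM or more of S100a8 and S100a9, 129 were dropped for Cd79a, 90 of them from 4T1.2 and 36 from 4T1 day 4, and 83 of the 129 also had 100 CPM or more of Cxcr2. A well with both signals can hold a pair of cells or RNA from a neighbour, which cannot be told apart here. No doublet caller was run, and the Cd79a, C1qa and keratin limits were the sole guard.

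Neutrophil wells made up 14 of 187 host wells or 7.49% in 4T1.2 at day 4 (exact Clopper-Pearson 95% interval 4.15% to 12.2%). In 4T1 they made up 83 of 359 or 23.1% at day 4 (18.9% to 27.8%), 13 of 43 or 30.2% at day 10 (17.2% to 46.1%) and 36 of 121 or 29.8% at day 16 (21.8% to 38.7%). In the fat pad they were 0 of 11 host wells, which allows a share of up to 27.3% by the limit of 3 counts and 28.5% by the exact interval. The low share in 4T1.2 turned on the Cd79a limit, which dropped 90 of its wells, 58 of them with 100 CPM or more of Cxcr2. The C1qa limit dropped 5 of its wells, all 5 of them also over the Cd79a limit. Without both limits, an alternative chosen after seeing the data, the share was 72 of 187 or 38.5% in 4T1.2 (31.5% to 45.9%), against 105 of 359 or 29.2% in 4T1 at day 4 (24.6% to 34.3%). All shares are of sorted wells that passed an mCherry gate and an mCherry qPCR limit, not of marrow cells.

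Markers of most other classes had low medians in the neutrophil wells, but many wells held some of their RNA. Of 11 B-cell markers, 10 had a median under 10 CPM, and the same held for 10 of 11 macrophage, 8 of 10 erythroid, 9 of 10 T and NK cell, 9 of 9 dendritic, 7 of 7 eosinophil, 10 of 10 progenitor and 7 of 9 monocyte markers. The summed macrophage markers nevertheless reached 300 CPM in 42 wells, of which 18 were among the 36 wells of day 16. Summed T and NK cell markers did so in 23 wells, B-cell markers in 14 and erythroid markers in 13. Summed monocyte markers, some of which neutrophils also transcribe, did so in 113 of 146 wells, 10 of 14 in 4T1.2 and, in 4T1, 59 of 83, 11 of 13 and 33 of 36 at days 4, 10 and 16, and progenitor markers in 26. Markers of at least 1 of these and the remaining classes, 10 in all, reached 300 CPM in 127 of 146 wells, and those of 8 classes, without monocytes and progenitors, in 73. For the group comparisons, some values are also given without wells that had 1000 CPM or more over the markers of any of these 8 classes, which left 9 of 14 wells of 4T1.2 and, in 4T1, 68 of 83, 12 of 13 and 28 of 36 at days 4, 10 and 16.

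Across the Cxcr2 limit, cell division genes, gelatinase granule genes and some other lists had most of their members at least 2-fold apart. The 2 sides differed in their groups. The Cxcr2-low wells were 16 of 4T1.2 and, in 4T1, 29, 4 and 9 at days 4, 10 and 16. The neutrophil wells were 14, 83, 13 and 36 in that order. The part of this makeup in the ratios below was not tested. Against the Cxcr2-low wells, 399 of 6097 genes or 6.54% were at least 2-fold higher in the neutrophil wells and 1086 or 17.8% at least 2-fold lower, in summed CPM with 5 CPM added. The median log2 ratio over all genes was -0.34, and 0.18 and 0.20 with edgeR's TMM and DESeq2's size factors, which turned the split to 945 higher and 331 lower and to 969 and 315. Because the limit that separated the wells is in the same cells, these ratios are descriptions from which nothing further is read.

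Gelatinase granule and late maturation genes stood on the higher side, with 15 of 19 at least 2-fold higher, 0 lower and a median log2 ratio of 1.68. Mmp9, gelatinase B, was at 5.18, 2257 and 13339 CPM in the lowest, median and highest neutrophil well and at 5.88, 146 and 8024 CPM in the Cxcr2-low wells, with a log2 ratio of the sums of 1.65. The same ratio was 2.75 for Retnlg, also of this list, and 2.49 for Mmp8, a member of the specific granule list. Surface receptors followed, with 21 of 32 higher, 0 lower and a median of 1.21. Fpr1, the receptor for formylated bacterial peptides, reached 100 CPM in 89 of 146 neutrophil wells and 11 of 58 Cxcr2-low wells. Clec4d, a C-type lectin that binds mycobacterial glycolipid, did so in 82 and 11 wells, and Ptafr, the receptor for platelet-activating factor, in 70 and 11. For Fpr1, Clec4d and Ptafr the medians were 204, 157 and 86.2 CPM in neutrophil wells, against 2.31, 3.55 and 4.94 CPM in Cxcr2-low wells, and all 3 ranges overlapped. Il1r2, the decoy receptor for interleukin 1, had a log2 ratio of 2.03.

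Specific granule genes did not separate these wells. Of 16 genes, 1, Mmp8, was higher and 1 lower, with a median of -0.19. Ngp, a neutrophil granule protein related to cystatins, had medians of 28713 CPM in neutrophil and 48798 CPM in Cxcr2-low wells, and Camp had 6128 and 13258 CPM. Ltf, lactoferrin, had 9922 and 14495 CPM. Fcnb, ficolin B, was the gene on the lower side, with 38 of 146 and 28 of 58 wells at 100 CPM and a log2 ratio of -1.74. Azurophil granule genes were lower for 6 of 8 genes, with a median of -2.12, but this rested on few wells. Mpo, myeloperoxidase, reached 100 CPM in 13 neutrophil and 14 Cxcr2-low wells, and its medians were 7.08 and 16.6 CPM. Restricted to wells with under 300 CPM over the markers of every other class, 19 neutrophil and 5 Cxcr2-low wells, the log2 ratio of Mpo was 0.031. Mpo is itself among the progenitor markers of that limit, which left out wells high in it, so nothing is read from this ratio.

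Cell division genes were on the lower side for 27 of 30 genes, with a median of -1.58, and for 20 genes under either other scaling. Top2a, the topoisomerase of dividing cells, had 0.428, 9.25 and 1441 CPM in the lowest, median and highest neutrophil well and 1.93, 409 and 2749 CPM in the Cxcr2-low wells. Mki67, a marker of cycling cells, reached 100 CPM in 36 of 146 and 36 of 58 wells. Cebpe, the transcription factor of late granulocyte differentiation, had medians of 4.58 and 377 CPM and reached 100 CPM in 57 and 39 wells. Both classes contained wells with and without these transcripts. Interferon response genes were higher for 21 of 37 and lower for 1, with a median of 1.27 in sums. In medians over wells the list median was 0.05, since most members were near 0 CPM in the typical well of either class. Among the 9 members with a median of 20 CPM or more in either class, 9 were higher in medians and 0 lower. Of all such genes, 243 of 2306 were higher. Slfn4, a Schlafen family gene induced by interferon in myeloid cells, had medians of 3035 CPM in neutrophil and 777 CPM in Cxcr2-low wells.

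**Figure D2:**
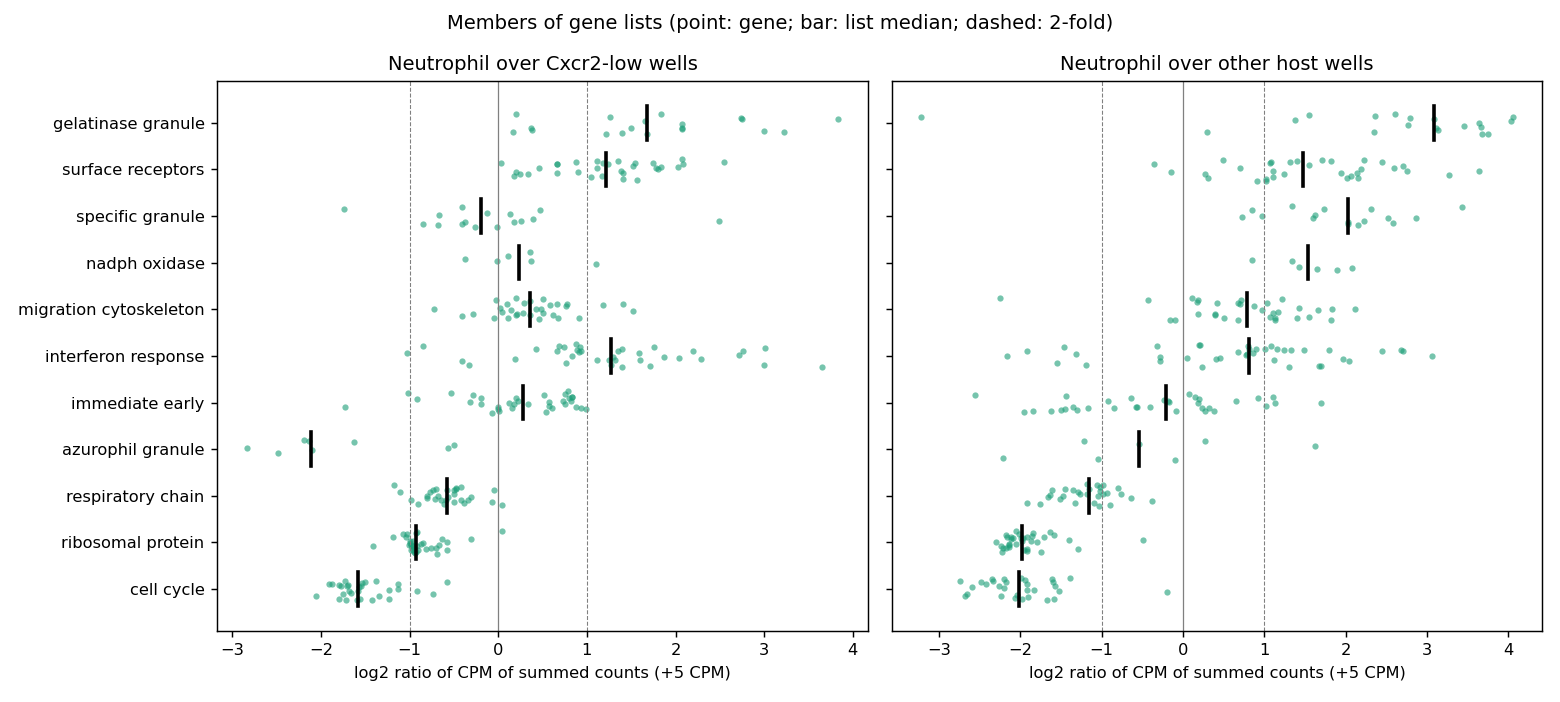
Log2 ratio of summed CPM for each gene (points) of 11 gene lists with the list's median (bar), for neutrophil over Cxcr2-low wells on the left and over all other host wells on the right. The medians of gelatinase granule (1.68 and 3.09) and surface receptor genes (1.21 and 1.47) lie right of 0 in both panels, and those of cell division genes (-1.58 and -2.01) left of 0.

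Against all other host wells, 654 of 7447 genes or 8.78% were at least 2-fold higher and 3482 or 46.8% lower, with a median log2 ratio of -0.91. The top 10 genes held 30.9% of the neutrophil counts and 17.6% of the other host counts, and S100a8 with S100a9 alone held 10.9% and 1.67%. With TMM factors the split was 2114 higher and 772 lower around a median of 0.37, and with DESeq2's 2511 and 541 around 0.58, so the direction of many genes turned on the scaling. The values were used to choose the wells, and nothing is read from the counts. Gelatinase granule genes were higher for 17 of 19, with a median of 3.09, surface receptors for 25 of 32, specific granule genes for 13 of 16 and subunits of the NADPH oxidase, which makes superoxide, for 5 of 6. Ncf1, a cytosolic subunit of that oxidase, was at 4.18, 988 and 3593 CPM in the lowest, median and highest neutrophil well, and at 0, 119.9 and 2242 CPM in the other host wells. Fpr1 had a log2 ratio of 3.64, with 89 of 146 against 47 of 575 wells at 100 CPM. Stfa2, BC100530 and other stefin genes were far higher, but they are near-identical copies among which reads can be split. They belong to the gelatinase granule list, so its counts here and in the other comparisons hold such copies.

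Ribosomal protein genes were lower for 33 of 34, with a median of -1.99, and 5 and 0 of them were 2-fold lower with TMM and DESeq2 factors, at medians of -0.82 and -0.61. Rpl3, a protein of the large ribosomal subunit, was at 4.74, 17.9 and 1645 CPM in the lowest, median and highest neutrophil well, 189 CPM in the median Cxcr2-low well and 709 CPM in the median other host well. Each of these medians lay below the median over all genes under the same scaling. Cell division genes were lower for 29 of 30, with medians of -2.01, -0.89 with TMM and -0.69 with DESeq2 factors. Respiratory chain genes had a median of -1.15, and -0.02 and 0.18 with TMM and DESeq2 factors, beside -0.91, 0.37 and 0.58 over all genes. In medians over wells, 25 of 29 of them were lower, with a median of -2.06.

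Among the 146 wells, the summed CPM of Ngp, Camp and Ltf spread from 108.1 to 181545 with a median of 48207. The 14 wells of 4T1.2 had a median of 42657 CPM, and those of 4T1 had 58753 CPM at day 4, 12776 CPM at day 10 and 31199.6 CPM at day 16. The relation of other genes to this sum is given as Spearman's rho over wells, which share libraries, plates and an overall scale, so it carries no p. Of 989 genes with a median of at least 50 CPM, the highest rho belonged to Cybb at 0.83, the membrane subunit of the NADPH oxidase. It was 0.82 within 4T1 day 4 and 0.84 within day 16. Next were Anxa1 at 0.80, which dampens neutrophil migration, Lcn2, the siderophore-binding lipocalin, at 0.77, Chil3, a chitinase-like protein, at 0.77, Serpinb1a, an inhibitor of elastase, at 0.76 and Lta4h, which makes leukotriene B4, at 0.73. Hmgn2, a nucleosome-binding protein, stood at 0.72 and Cpne3, a copine, at 0.70.

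At the other end stood Srgn, the proteoglycan core of granules, with a rho of -0.78, and the ferritin heavy chain Fth1 with -0.76. Tpm4, a tropomyosin, had -0.73, Clec4d -0.72, Malat1, a nuclear long non-coding RNA, -0.68, Selplg, the ligand of P-selectin, -0.65, Fxyd5 -0.65 and Cyp4f18, which hydroxylates leukotriene B4, -0.64. The late genes Csf3r and Retnlg were negative as well, at -0.60 and -0.57, but Mmp9 was near none at -0.20. Cxcr2, which chose the wells and is given as a description alone, had -0.52. Mmp8, a member of the specific granule list, was also negative, at -0.54. S100a8, which also chose the wells, had 0.30 over all wells, 0.07 within day 4 and 0.56 within day 16. Ly6g, the surface antigen used to sort mouse neutrophils, had 0.42, 0.23 and 0.80. The same sum had a rho of 0.15 with gene counts, 0.03 with detected genes and 0.29 with summed cell division genes. It had -0.23 with the summed interferon response genes, -0.41 within day 4 and -0.41 within day 16, and 0.26 with mCherry, 0.22 within day 4 and 0.34 within day 16. Wells low in specific granule transcripts thus tended to be high in Srgn and Clec4d, also within day 4 of 4T1, where their rho was -0.78 and -0.72, and within day 16, where it was -0.80 and -0.80.

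**Figure D3:**
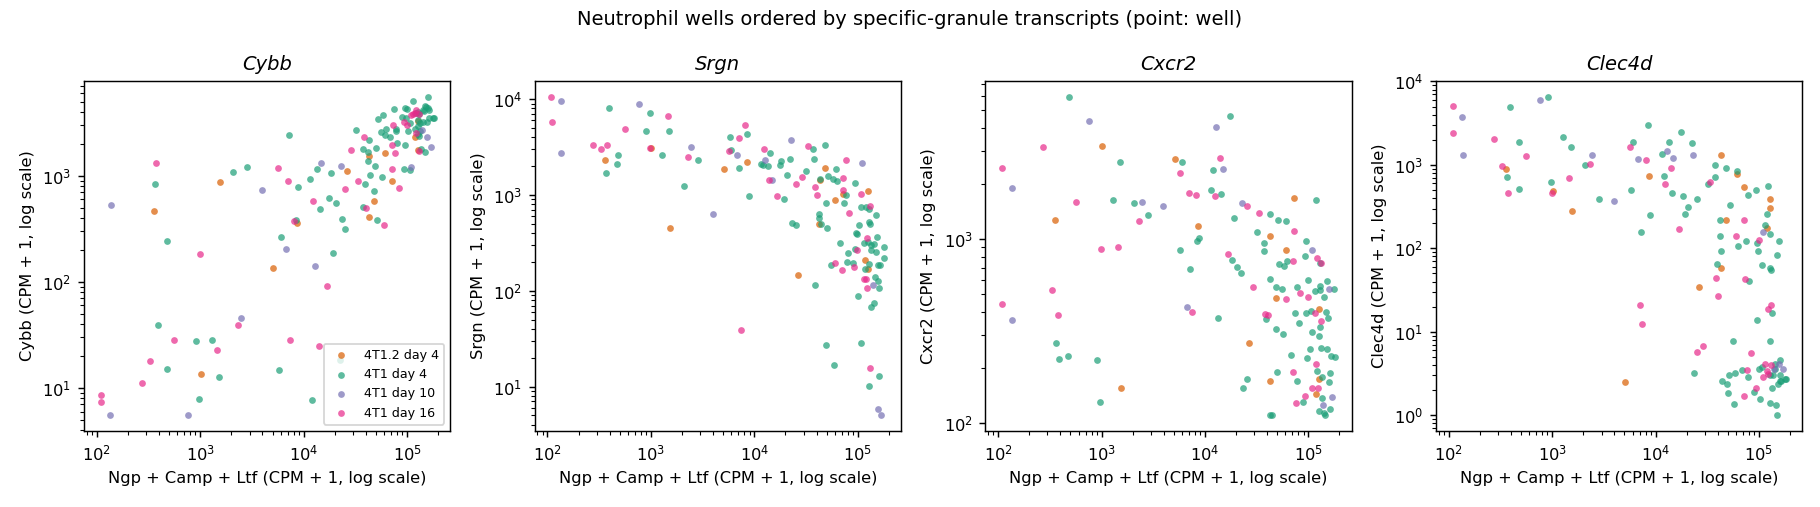
Summed CPM of Ngp, Camp and Ltf (x axis, log) against CPM of Cybb, Srgn, Cxcr2 and Clec4d (y axes, log), with each neutrophil well a point coloured by group. Cybb is high where the granule sum is high (rho 0.83), and Srgn (-0.78) and Clec4d (-0.72) are high where it is low. Cxcr2 has no well under 100 CPM, since it chose the wells.

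At day 10, 13 neutrophil wells stood against 83 at day 4 in 4T1. In sums, 734 of 5424 genes or 13.5% were at least 2-fold higher and 1014 or 18.7% lower, with a median log2 ratio of -0.05, and 961 higher and 792 lower with DESeq2's factors. Camp and Ltf had lower medians. Camp was at 19.2, 248 and 26674 CPM in the lowest, median and highest well of day 10, against 34.3, 8226 and 35280.4 CPM at day 4, and Ltf at 22.4, 659 and 37997 CPM, against 49.3, 14156 and 53002 CPM. The ranges overlapped, and the log2 ratios of the sums, -0.86 for Camp and -1.04 for Ltf, were closer to 0 than those of the medians, -5.02 and -4.42 for Camp and Ltf. Over 16 specific granule genes, 2 were higher and 3 lower in sums, near the background of 18.7%. Among the 13 with a median of 20 CPM or more in either group, 0 were higher and 8 lower in medians, where 343 of 1701 genes or 20.2% were higher and 531 or 31.2% lower. Haemoglobin genes were among the furthest lower in sums, but Hbb-bs also had medians of 0 CPM in tumour wells of day 10, against 13.7 CPM at day 4, beside 0 and 14.8 CPM in neutrophil wells.

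Some late genes had higher medians at day 10. Retnlg had a median of 9942 CPM at day 10 and 3803 CPM at day 4. Cxcr2, which chose the wells and is given as a description alone, had 1506 and 481 CPM. Clec4d reached 100 CPM in 10 of 13 wells, against 43 of 83, with a log2 ratio of 1.61. Gelatinase granule genes were higher for 4 of 18 and lower for 0, with 2 to 8 higher across the alternatives and 2 without the wells of 1000 CPM or more, and surface receptors for 6 and 0 of 32, near the background of 13.5%. Bcl6, a transcriptional repressor, had medians of 133 and 8.31 CPM, with 8 of 13 and 7 of 83 wells at 100 CPM and a log2 ratio of 3.00. Bcl2l1, which encodes the survival factor Bcl-xL, had 9 and 26 wells at 100 CPM and a ratio of 2.05. H2-K1, a heavy chain of MHC class I, had 462, 2836 and 5031 CPM in the lowest, median and highest well, against 75.1, 786 and 3746 CPM. Its level at day 10 was also 3133 CPM in the median other host well without neutrophil RNA and 3234 CPM in the median tumour well, and its reads can be shared with other class I genes.

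At day 16, 36 wells stood against the same 83 wells of day 4. In sums, 586 of 5418 genes or 10.8% were higher and 727 or 13.4% lower, with a median of -0.07. Mmp8 had 12.3, 3924 and 19850.2 CPM in the lowest, median and highest well of day 16, against 2.22, 1331 and 9047 CPM at day 4, and a log2 ratio of 1.54. Asprv1, a retroviral-like aspartic protease, reached 100 CPM in 23 of 36 and 32 of 83 wells. Gelatinase granule genes were higher for 7 of 19 and lower for 0, with 4 to 8 higher across the alternatives and 4 without the wells of 1000 CPM or more. The furthest higher of the 7 was Arg1, which reached 100 CPM in 2 of 36 wells. Camp and Ltf were lower in the median well, at 2892 and 5170.3 CPM, against 8226 and 14156 CPM. Camp reached 100 CPM in 22 of 36 and 73 of 83 wells. Of 16 specific granule genes, however, 1, Mmp8, was higher and 1 lower in sums. Among the 13 with a median of 20 CPM or more in either group, 1 was higher and 4 lower in medians. Of all such genes, 10.6% were higher and 28.1% lower. Cell division genes were lower for 17 of 29 and higher for 0, with a median of -1.18, and 12 were lower without the deepest well of each group. Top2a had a log2 ratio of -1.72 and medians under 10 CPM at both days, so that ratio came from 18 wells of day 4 and 2 of day 16 with 100 CPM or more.

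Genes linked to tumour-associated neutrophils were higher for 9 of 24 and lower for 0 at day 16, with a median of 0.66 and 5 to 10 higher across the alternatives, but the ones furthest apart in sums were also found in other wells of that day. Spp1, osteopontin, stood at 103, 186 and 16432 CPM in the lowest, median and highest neutrophil well of day 16, against 2.77, 17.2 and 1339.8 CPM at day 4. All 36 wells of day 16 exceeded 100 CPM, as did all 68 other host wells without neutrophil RNA, at a median of 208 CPM, while tumour wells of that day had 18097 CPM. The median neutrophil well was thus no higher than the median other host well, and the part of RNA from tumour cells in that level was not tested. Arg1, arginase 1, was 8081 CPM in the highest well and 31.5 CPM in the median well of day 16, with 2 of 36 wells at 100 CPM. Summed macrophage markers had medians of 296 CPM in neutrophil wells of day 16 and 16.4 CPM at day 4, and without the wells of 1000 CPM or more the log2 ratio of the sums was 2.86 instead of 5.77 for Arg1 and 1.98 instead of 3.23 for Spp1, and 5 of 21 genes of the list were higher and 1 lower, where 12% of all genes were higher.

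At day 4, 14 neutrophil wells of 4T1.2 stood against 83 of 4T1, with 1087 of 5735 genes or 19% at least 2-fold higher and 845 or 14.7% lower, and a median of 0.13. The Cd79a and C1qa limits had left these 14 of 72 wells in 4T1.2, and 83 of 105 in 4T1. The 14 wells also had less mCherry, with a median of 26.6 CPM against 1634 CPM. The part of either difference in the ratios below was not tested. Immediate-early genes, which are switched on within minutes of a stimulus without new protein, were higher for 15 of 34 and lower for 0, with a median of 0.92, and for 13 to 18 genes under 11 alternatives with sums or means. Fos, a subunit of AP-1, had 49.9, 2633 and 7416 CPM in the lowest, median and highest well of 4T1.2, against 15.8, 132 and 4609.5 CPM in 4T1, and 13 of 14 against 44 of 83 wells at 100 CPM. Dusp1, a phosphatase that turns off MAP kinases, had 22.4, 1048 and 10192 CPM, against 2.55, 11.8 and 2732 CPM, with a log2 ratio of 3.28. Junb, a partner of Fos, had medians of 1688 and 318 CPM. The ranges of all 3 genes overlapped, and their medians in 4T1.2 lay above those in 4T1.

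Among 18 cytokine and chemokine genes tested, 7 were higher and 3 lower. Il1b, interleukin 1 beta, had 8.28, 1257 and 5063 CPM in 4T1.2, against 0, 5.02 and 13119 CPM in 4T1, and reached 100 CPM in 13 of 14 and 32 of 83 wells. Its log2 ratio in sums was only 0.89 against 6.98 in medians. Osm, oncostatin M, reached 100 CPM in 12 and 39 wells, with a log2 ratio of 2.40. Il1r2 was on the other side, with medians of 190.4 and 757 CPM and a log2 ratio of -1.74. Of 16 specific granule genes, 1 was higher and 5 lower, with a median of -0.70. The other host wells of 4T1.2 without neutrophil RNA had a summed immediate-early level of 6692 CPM in the median, against 6809.7 CPM in those of 4T1, and tumour wells had 10830.3 and 21653 CPM. For neutrophil wells the values were 18880.2 and 5593 CPM, and for Cxcr2-low wells 8585 and 3391 CPM. Summed B-cell markers had medians of 132 CPM in the neutrophil wells of 4T1.2 and 49.5 CPM in those of 4T1. Without the wells of 1000 CPM or more, 18 of 34 immediate-early genes were higher and 1 lower, where 20.9% of all genes were higher, and the log2 ratio of Il1b was 0.36 instead of 0.89. Mast cell and basophil genes were the furthest higher in sums, but Prss34, a mast cell protease, reached 100 CPM in 1 well of 4T1.2, at 29667 CPM, and in 0 of 4T1.

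Interferon response genes were lower in sums in each of the 3 group comparisons, which share the 83 wells of 4T1 day 4. They were lower for 27 of 39 and higher for 0 in 4T1.2, lower for 30 of 38 and higher for 1 at day 10, and lower for 31 of 39 and higher for 1 at day 16, with medians of -1.66, -1.89 and -1.85. Of all genes, 14.7%, 18.7% and 13.4% were lower in these comparisons. Taken from the medians over wells, the same list medians were -0.37, -0.29 and -0.23, since many of these genes were near 0 CPM in the typical well of every group. Across 11 alternatives with sums or means, 26 to 29, 27 to 32 and 30 to 33 genes were lower. Without the wells of 1000 CPM or more, 28 of 37, 29 of 37 and 31 of 37 were lower, where 24.8%, 18.2% and 17% of all genes were. Among members whose median well reached 20 CPM in either group, 10 of 13, 10 of 14 and 11 of 14 were lower in medians and 0, 2 and 1 higher, while 25.4%, 31.2% and 28.1% of all such genes were lower. Irf7, the factor that amplifies type I interferon responses, had 0.63, 117 and 768 CPM in the lowest, median and highest well of 4T1.2. In 4T1 it had 2.06, 366 and 3841 CPM at day 4, 1.02, 109.7 and 742 CPM at day 10, and 1.37, 75.6 and 1215 CPM at day 16. Oas3, an antiviral enzyme activated by double-stranded RNA, reached 100 CPM in 8 of 14 wells of 4T1.2 and, in 4T1, in 62 of 83, 6 of 13 and 11 of 36 wells at days 4, 10 and 16. The ranges of Irf7 and Oas3 overlapped among all 4 groups.

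The genes with the largest ratios in sums were carried by fewer wells. Ifit1, which binds foreign 5′ ends of RNA, reached 100 CPM in 2 of 14 wells of 4T1.2 and, in 4T1, in 21, 0 and 2 wells at days 4, 10 and 16. Rsad2, viperin, did so in 1 well of 4T1.2 and in 23, 0 and 0 wells of 4T1. Ifitm1, a membrane protein that blocks viral entry, was on the other side, with 7 of 13 and 19 of 36 wells at 100 CPM at days 10 and 16, against 27 of 83 at day 4. The summed level of the list, 11262 CPM in the median neutrophil well of 4T1 day 4, was 3054 CPM in Cxcr2-low, 2018 CPM in other host and 1446 CPM in tumour wells of the same group. Between days 4, 10 and 16 it was 11262, 7796 and 6349.7 CPM in neutrophil wells, while tumour wells had 1446, 3412 and 2526 CPM. These medians had a different order of days in neutrophil and tumour wells, with 13 neutrophil wells at day 10, and the cause was not tested.

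**Figure D4:**
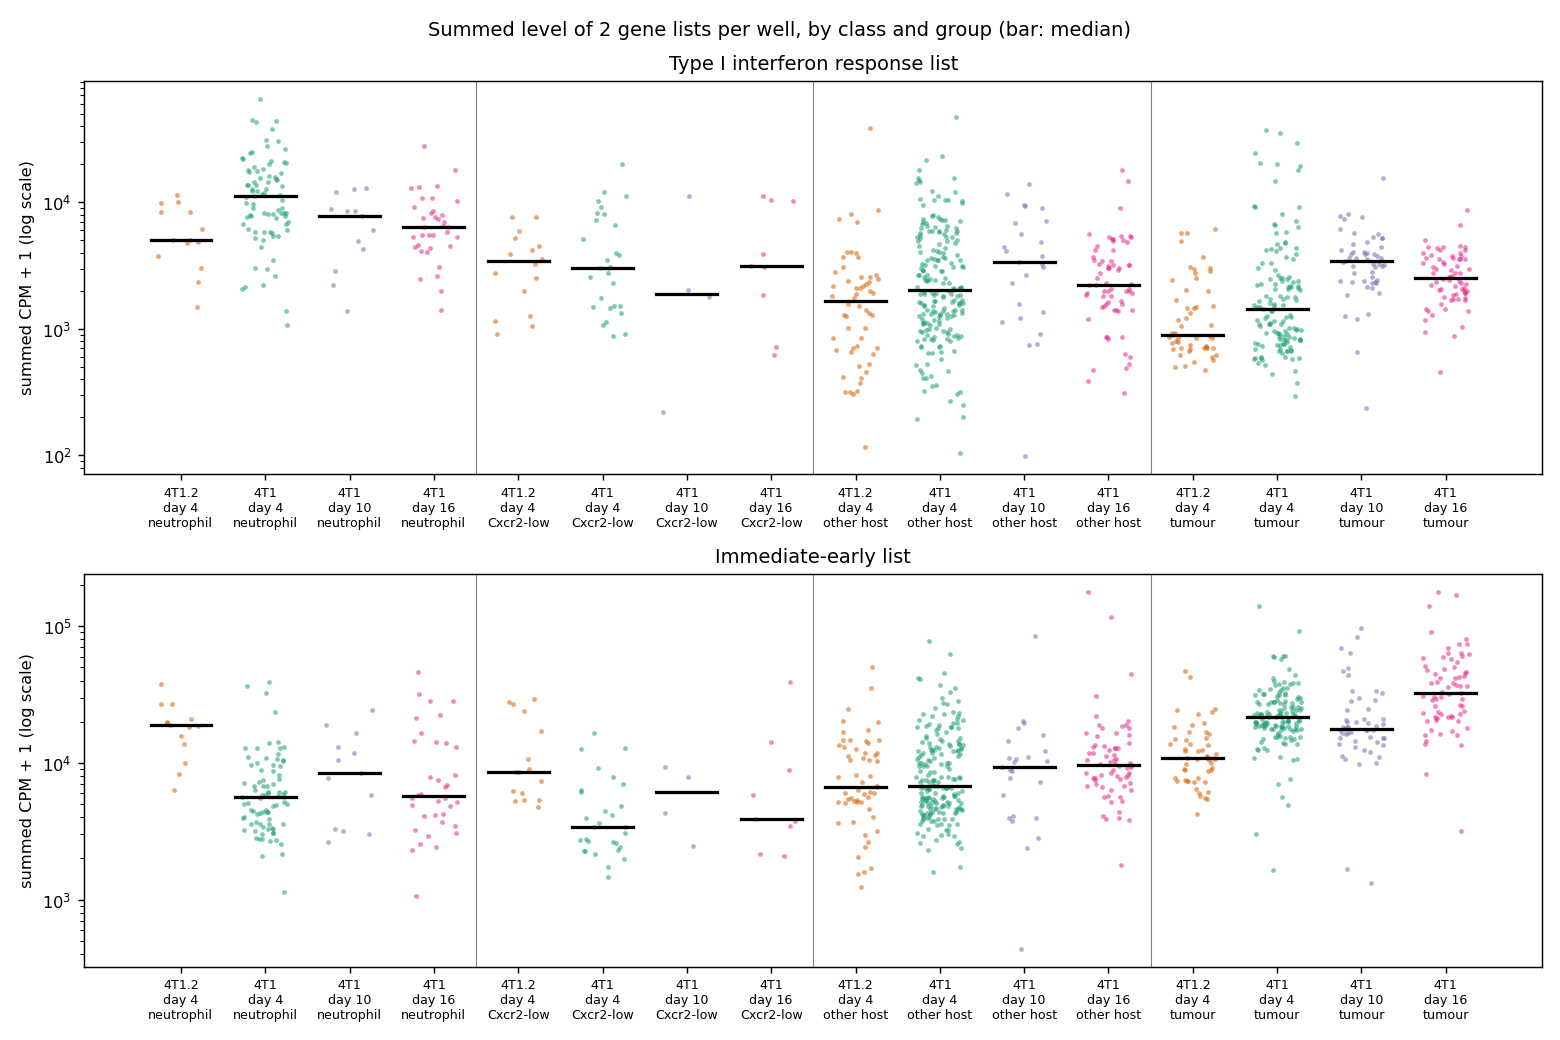
Summed CPM (log axes) of the interferon response list and the immediate-early list per well, by class of well (neutrophil, Cxcr2-low, other host without neutrophil RNA, tumour) within each group, with bars at medians. The neutrophil wells of 4T1 day 4 have the highest interferon median (11262 CPM), and those of 4T1.2 have the highest immediate-early median among the neutrophil groups (18880 CPM).

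The mCherry transcript, read from the reporter row outside the gene total, was found in most neutrophil wells. It reached 100 CPM in 5 of 14 wells of 4T1.2 and, in 4T1, in 76 of 83, 12 of 13 and 34 of 36 wells at days 4, 10 and 16, with medians of 26.6, 1634, 2203 and 2672 CPM in that order. Tumour wells had medians of 344, 403, 551 and 667 CPM in the same groups. The median neutrophil well of 4T1 thus had a higher mCherry CPM than the median tumour well of its own day. CPM is relative to each well's own gene total, and spike-ins were not used for scaling, so amounts of mCherry RNA per well were not compared. A level above the tumour median was not particular to neutrophil wells. Over all groups, the mCherry median was 1845 CPM in neutrophil wells, 1175 CPM in Cxcr2-low wells and 491 CPM in tumour wells. It was 1334 CPM in other host wells without neutrophil RNA, but 28.5 CPM in host wells with 100 CPM or more of C1qa. The luciGFP row, the second reporter, had medians of 1.85, 0.952, 1.19 and 2.24 CPM in neutrophil wells, against 69.8, 63.6, 97.8 and 77.4 CPM in tumour wells. Over all groups, its median was also low in Cxcr2-low wells, at 0.832 CPM, and in other host wells without neutrophil RNA, at 0.784 CPM. Wells with little mCherry cDNA were discarded before sequencing, so the mCherry share is set in part by that step.

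**Figure D5:**
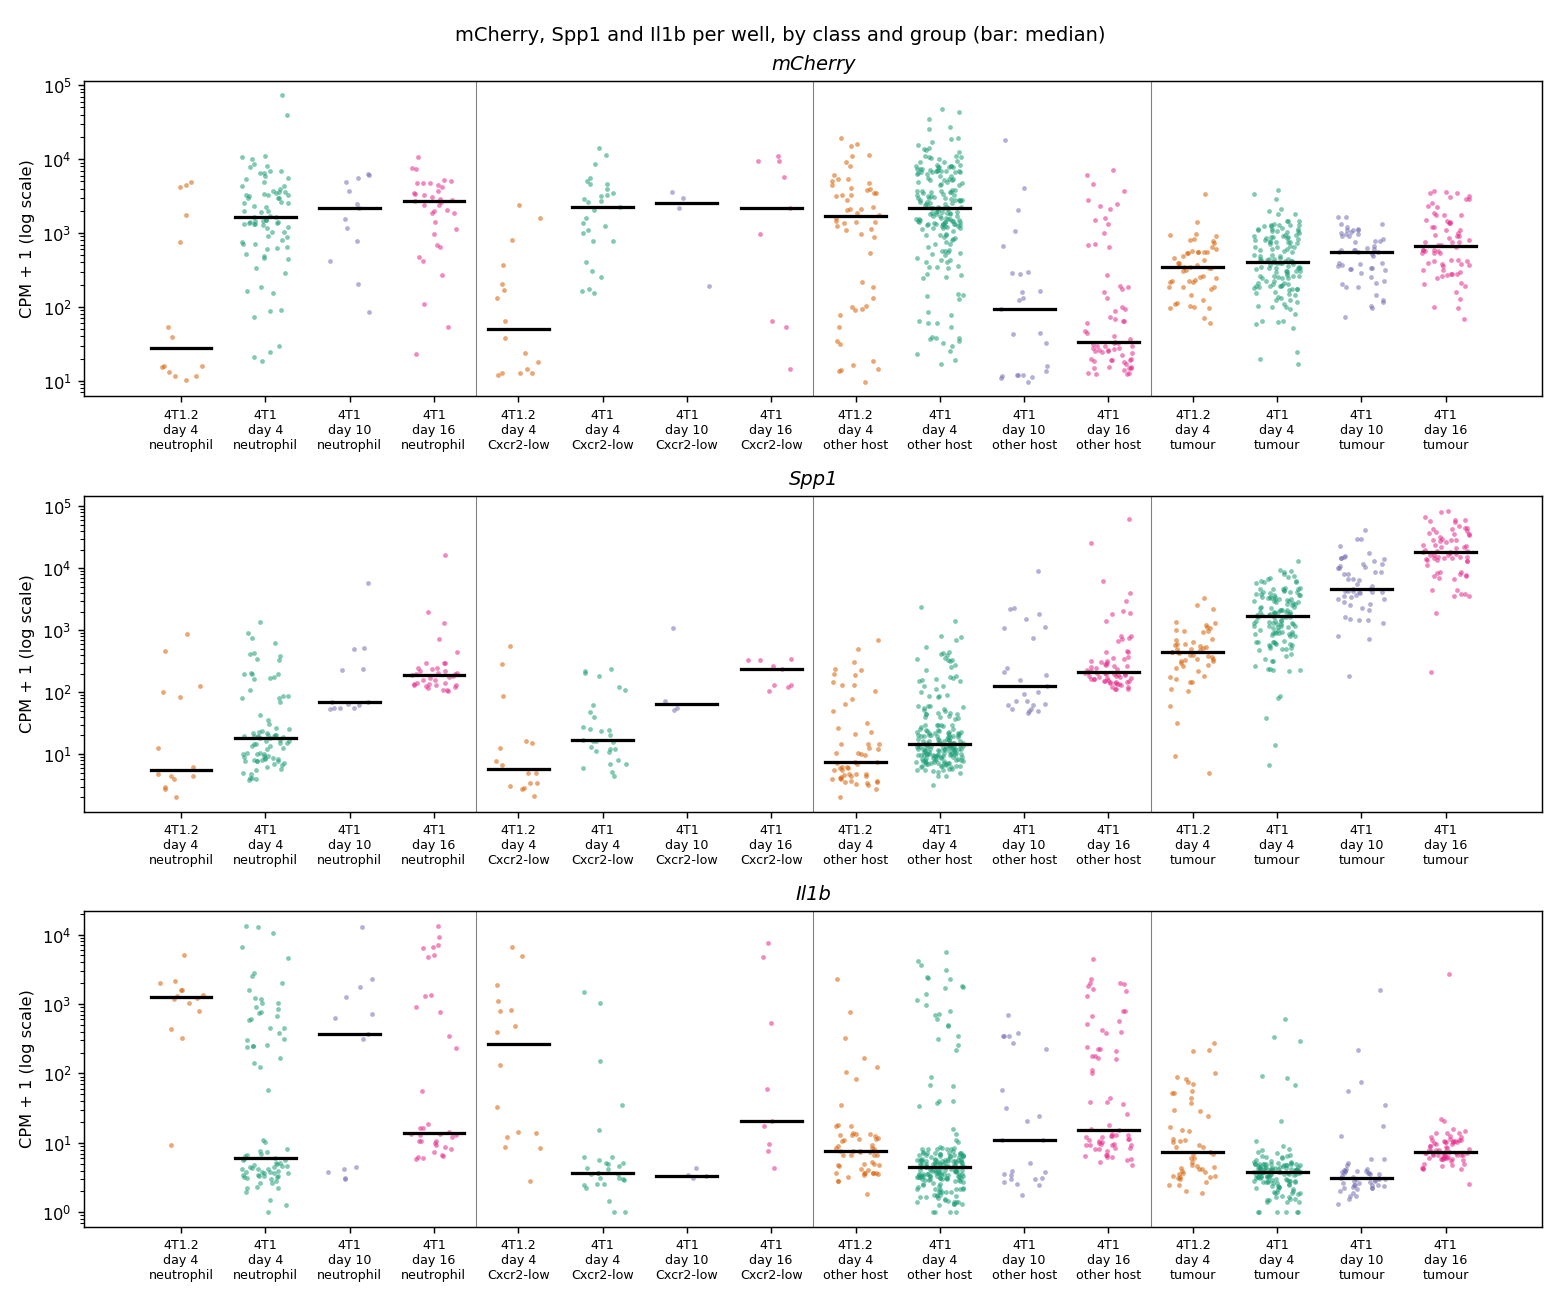
CPM + 1 on log axes of mCherry, Spp1 and Il1b per well by class of well within each group, with bars at medians. At day 16 the Spp1 median of neutrophil wells (186 CPM) is close to that of other host wells (208 CPM), and Il1b is high in 13 of the 14 neutrophil wells of 4T1.2.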

How the data were processed

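Single wells were sequenced as paired 150-base reads from polyA RNA, per the labels' protocols. The submitters' processing notes name the build mm10 and, with no role or order, the programs Seurat 3.1.2, featureCounts 1.6.2, STAR 2.6.0c, FastQC 0.11.7, SAMtools 1.7, R 3.6.2 and Trim Galore 0.6.6. The deposited table holds raw read counts of 40840 rows for 1248 wells. ERCC spike-ins (78 rows, 0.670% of counts), the reporters mCherry and luciGFP (0.187%) and 4 rows with repeated date-like symbols (0.0149%) were left out of the totals. CPM were computed over the remaining 40756 genes with Python 3.11.15, numpy 2.4.6, pandas 2.3.3 and scipy 1.17.1. Of these symbols, 98.96% are in GENCODE M21. Gene lengths were not used, so CPM are compared between wells and never between genes.

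Members, gene lists and thresholds were chosen with earlier results of these data known. Wells were compared as sums of raw counts, as log2 of (CPM + 5) ratios, for genes with at least 20 CPM in the higher sum; a gene counted as apart at 2-fold. With 1 sample a group no count test was run. TMM factors (edgeR 4.0.16) and DESeq2 1.42.0 size factors, in R 4.3.3, served as other scalings, and the code was tested on simulated counts. "Other host wells without neutrophil RNA" have under 1000 CPM of S100a8 and S100a9 together. Genes were named by a rule that took the 12 furthest in each direction among well-detected genes, the list members furthest in and against a list's direction, all markers, and the 8 highest and lowest Spearman rho. Irf7, Oas3 and Ly6g fall outside it and were chosen after their values were seen, as was the use of a gene in comparisons other than the one that named it. Figures were drawn with matplotlib 3.10.9.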

Additional observations from a re-analysis of the deposited data

How the results depend on the processing

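No paired analysis was possible because the values come from no test and the cell numbers shared by the groups' labels name wells only. Lifting the Cd79a and C1qa limits gave 229 wells, and shares of 38.5% in 4T1.2 and 29.2% in 4T1 day 4, while the other limits gave 118 to 161 wells. A Cxcr2 limit of 200 CPM gave a share of 18.4% in 4T1 day 4. As shares of all wells that passed, 4T1 stood at 16.6%, 13.5% and 18.8% at days 4, 10 and 16. The number of genes at least 2-fold apart was 2457 instead of 4136 against other host wells when medians over wells replaced sums, and 2859 instead of 1485 against Cxcr2-low wells when wells with 300 CPM or more over markers of another class were left out. Without the 20 CPM filter it was 3230 at day 10, 2308 at day 16 and 3091 for 4T1.2, and with medians 874, 634 and 817, instead of 1748, 1313 and 1932.

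Among genes and lists whose log2 ratio was at least 1 in size, these changed sign. List medians nearer 0 also did under some settings, such as azurophil granule genes at 0.62 instead of -0.55 against other host wells in medians. The respiratory chain list against other host wells was 0.18 with DESeq2's factors. With medians, C1qa was 0.17, C1qb 0.11 and C1qc 0.031 against other host wells, and for 4T1.2 Car1 was 0.078 and Slc4a1 0.19. Without wells of 300 CPM or more, against Cxcr2-low wells, Ascc1 was 0.47, Cbfa2t3 0.040, Cecr2 0.20, Ctsg 0.0052, Gstm1 1.45, Irf7 -0.75, Irf8 0.11, Mpo 0.031 and Nek2 1.56. Ctsg and Mpo are progenitor markers and Irf8 a dendritic marker of that limit, which set their values in part. Without the deepest wells, Hfe was -0.59 at day 10, Id3 -0.15 at day 16 and Car1 0.037 for 4T1.2. Without wells of 1000 CPM or more over 8 classes, Hbb-bs was 0.00053 at day 16, and for 4T1.2 Adora2b was -0.036, Car1 0.025 and Slc4a1 0.091. Hbb-bs and Car1 are erythroid markers of that limit, which likewise set their values in part. With the Cxcr2 limit of 200 CPM, Car1 was 0.028. The cause of each was not tested.

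Among counts and shares, 87 alternatives kept a count within 1.5 times or a share within its interval, and 15 did not. The medians, the deepest-well, the 1000 CPM, the lifted-limit and the S100a8-poor comparison settings were chosen after seeing the data. The 300 CPM setting was not run for the group comparisons, since 2, 1 and 1 wells were left at day 10, day 16 and in 4T1.2.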
